A study of Mus musculus with 12 samples.

Results

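The response of NIH-3T3 cells to 4-thiouridine (4sU) was measured over both ways of running the SLAM-seq chemistry, with all 12 libraries of the series in use. NIH-3T3 is an established line of mouse embryonic fibroblasts, wild type per the labels. The 4sU groups were cells given 200 µM or 800 µM 4sU for 2 h, each converted in tubes or inside methanol-fixed cells, which makes 4 groups and 8 libraries. The no4sU groups, 1 for each procedure, hold the other 4 libraries. Each of the 6 groups had 2 libraries, replicates A and B. The labels do not say whether A and B were separate cultures, so p-values measure the spread between these libraries, which may be technical. Members were chosen by direction: a gene called by 1 shared 4sU term, with procedure as a covariate, was set apart by whether its mean at both doses in both procedures lay on the same side of the no4sU mean of that procedure.

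4sU is a uridine analogue that cells take up and build into RNA while it is being transcribed. Iodoacetamide then alkylates the sulphur, and reverse transcription reads the modified base as C, so newly made RNA can be told from older RNA within 1 library. Conversion was run at 37 °C for 1 h in tubes and at 50 °C for 30 min in fixed cells, so procedure, temperature and time cannot be told apart. In a comparison of 4sU with no4sU, what the cells did during labelling and what the chemistry did to labelled RNA cannot be told apart.

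Library totals ran between 3629634 and 7762635 counts, and 11080 of 15217 genes passed a filter on low counts. The first principal component separated the procedures. On the second, the 8 libraries with 4sU lay between 1.75 and 15.4 and the 4 no4sU libraries between -21.6 and -18.5. The 2 fixed-cell libraries at 800 µM stood farther apart than other replicates, with a chi-square per degree of freedom of 21.5 over genes against 3.15 to 6.81 in the other groups. All 12 fibroblast markers looked for were detected in all 12 libraries, although Lum stayed between 0.595 and 3.37 CPM (counts scaled to library size). Among markers of other cell types, Ptprc and Lyz2, markers of blood and myeloid cells, were at 0 in 11 libraries. Adipoq, Krt8, Cdh1, Cdh5 and Pecam1 reached at most 0.855 CPM and were at 0 in 2 to 10 libraries. Cd68, also a myeloid marker, was detected in all 12 libraries at 2.78 to 11.1 CPM. So were Tubb3 (2.18 to 6.74 CPM) and Map2 (3.93 to 11.0 CPM). The summed level of 10 markers of other cell types was 16.7 to 24.6 CPM in the libraries with 4sU and 15.1 to 21.9 CPM in those without.

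The shared 4sU term called 1358 of 11080 genes at a Benjamini-Hochberg adjusted p under 0.05 in edgeR's quasi-likelihood test, 12.3% of those tested. Of these 683 rose, 6.16% of the genes tested, and 675 fell, 6.09%. Most changes were small. Only 44 rises and 54 falls exceeded 2-fold. Among the called rises, 675 lay above the no4sU mean in all 4 dose and procedure means (98.8%), and among the called falls 667 lay below it in all 4 (98.8%). Regardless of p, all 4 means were above no4sU at 2618 genes (23.6%) and below it at 2324 genes (21%). The call and the 4 means come from the same libraries, so the high share among called genes is a description and not a separate line of evidence. Just inside the threshold lay Ndufs4, at a log2 fold change of 0.28, and just outside it Vbp1, also at 0.28.

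A stricter reading asks that every library with 4sU lie on the same side of both no4sU libraries of its procedure. In both procedures at once, 668 genes lay entirely above (6.03% of those tested) and 584 entirely below (5.27%). Among the called genes this held for 472 rises (69.1%) and 459 falls (68%).

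The even split between rises and falls depended on the scaling. When libraries were scaled on the 3663 genes with the lowest share of new RNA, the median log2 fold change of all genes moved by -0.12, and the term called 204 rises and 1378 falls. Rises were then 12.9% of the calls, against 50.3% in the fit reported here, and 203 rose and 1361 fell in all 4 means. No called gene was called in the opposite direction under this or any other setting tried. List counts below stand beside the 6.16% and 6.09% of all tested genes that rose and fell. All rises and falls below are relative to the TMM scaling of all tested genes, with a median log2 fold change of 0.02. Levels are CPM on library sizes with that scaling, and values of single libraries run 200 µM A and B, 800 µM A and B, then no4sU A and B. Errors beside fold changes are SEs.

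**Figure D1:**
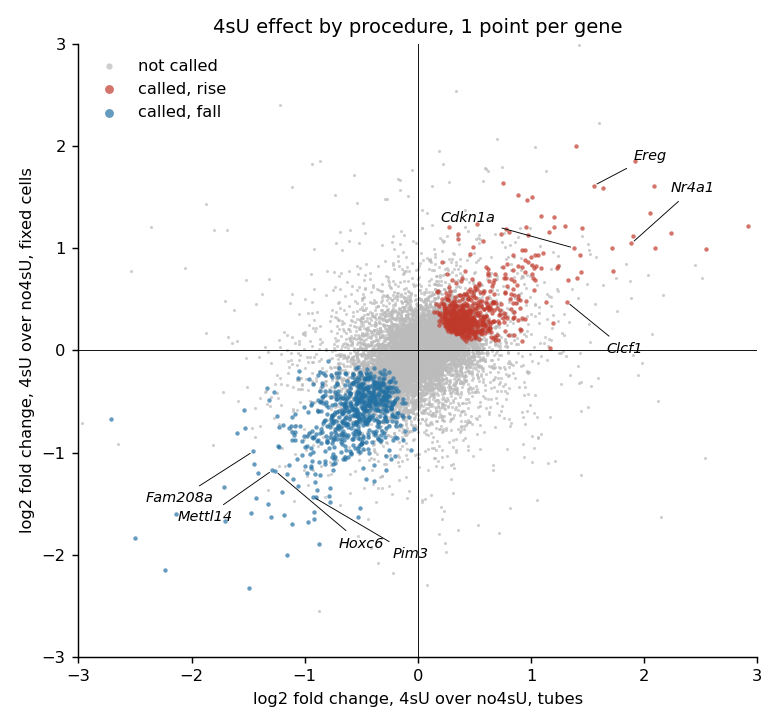
Each point is 1 of the tested genes, at its log2 fold change of 4sU over no4sU in tubes (x axis) and in fixed cells (y axis), both doses together. Red and blue points are the 683 rises and 675 falls called by the shared term, which lie in the upper right and lower left, and 23 genes lie outside the axes at 3.

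The largest rises were ligands, early transcription factors and stress genes. Ereg, which encodes the EGF receptor ligand epiregulin (chr5:91074622-91093646, GRCm38), had 41.3, 30.4, 51.4 and 48.8 CPM in tube libraries with 4sU against 18.8 and 10.9 CPM in tube no4sU libraries. The fixed-cell libraries held 36.4, 33.5, 47.6 and 32.0 CPM with 4sU against 13.5 and 10.9 CPM without. The groups did not overlap in either procedure, and the shared log2 fold change was 1.58 ± 0.17 (SE, 8 against 4 libraries, edgeR adjusted p = 9.2e-06). Hbegf, a second ligand of that receptor family, had 123, 114, 185 and 167 CPM with 4sU against 68.8 and 59.3 CPM without in tubes. Its fixed-cell libraries with 4sU ran between 101 and 142 CPM against 54.3 and 48.8 CPM without, and its log2 fold change of 1.21 ± 0.13 was the same in both procedures to 2 decimals. Errfi1, an inhibitor that binds the EGF receptor, also rose (0.80 ± 0.11). These were the 3 called genes among 9 tested members of the EGF receptor family and its ligands, 0 fell, and all 3 stayed called in every alternative run. The median of that list was 0.06, against 0.02 over all genes, and turned to -0.06 with the low-ratio scaling.

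Nr4a1, an orphan nuclear receptor of the immediate early class, had 104, 133, 135 and 115 CPM in tubes with 4sU against 41.1 and 25.2 CPM without. In fixed cells it had 95.3, 113, 116 and 114 CPM with 4sU against 52.6 and 53.3 CPM without. Every library with 4sU was above every library without, and the shared log2 fold change was 1.43 ± 0.15 (adjusted p = 7.3e-06). The fixed-cell effect was 1.05 and the tube effect 1.89. Their difference, fixed cells minus tubes, of -0.84 ± 0.23 did not pass adjustment over all genes. Egr3, a zinc finger factor of the same class, rose by 1.30 in fixed cells and 1.20 in tubes, a difference of 0.10 ± 0.29.

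The letters upstream of Nr4a1 are shown because 1 short element recurs there. The 250 bases before the RefSeq start (chr15:101266596-101266845, GRCm38.p6, plus strand), which lies inside the longer GENCODE gene, are given 5′ to 3′ with each TGCGTCA, an AP-1-like element, in capitals. The element was picked after the sequence was seen.
Nr4a1: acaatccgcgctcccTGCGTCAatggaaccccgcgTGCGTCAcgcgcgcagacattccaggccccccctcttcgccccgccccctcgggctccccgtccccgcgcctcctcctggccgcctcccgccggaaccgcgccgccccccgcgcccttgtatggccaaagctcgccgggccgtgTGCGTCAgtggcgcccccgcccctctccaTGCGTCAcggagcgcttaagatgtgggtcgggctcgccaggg
The window held 4 matches over both strands, none overlapping. Among 8564 tested genes with a promoter in the RefSeq table, 289 (3.37%) held at least 1 match and Nr4a1 alone held 3 or more. The element was in 22 of 528 promoters of genes that rose in all 4 means (4.17%) and in 17 of 536 of genes that fell in all 4 (3.17%). A match is a description of letters and not of a bound site.

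Not all immediate early factors moved with Nr4a1. Of 28 tested, 5 rose (Nr4a1, Egr3, Btg2, Klf4 and Maff) and 4 fell (Ier5, Ier5l, Jun and Egr1). Ier5, an early gene tied to the heat shock response, had 365 to 459 CPM in tubes with 4sU against 641 and 658 CPM without. Its fixed-cell levels were 223 to 254 CPM with 4sU against 430 and 362 CPM without, and its log2 fold change was -0.69 ± 0.08 (adjusted p = 2.1e-05). The median of the list was 0.10, and -0.03 with the low-ratio scaling. Klf4, a Kruppel-like factor, lost its call without fixed no4sU library B. The other 4 rises and all 4 falls held in every alternative.

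Among 15 feedback inhibitors of MAP kinase signalling, Spred2 rose (1.02 ± 0.21) and Dusp1, the phosphatase induced early by growth factors and stress, fell (-0.56 ± 0.10). Both calls held in every alternative. Dusp4 and Dusp5 also passed the test in the rising direction, and the count of rises fell to 1 in 7 of 12 leave-one-out fits, those without tube 800 µM B, without tube no4sU A or B, without fixed 200 µM A or B, or without fixed no4sU A or B.

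Angptl4, a secreted inhibitor of lipoprotein lipase (chr17:33773750-33781830), had 148, 168, 131 and 131 CPM in tubes with 4sU against 53.2 and 52.7 CPM without. In fixed cells it had 104, 128, 133 and 127 CPM with 4sU against 56.4 and 50.9 CPM without. The groups were separated by a wide margin in both procedures, with a log2 fold change of 1.32 ± 0.10 (adjusted p = 1.2e-07). Of 14 PPAR-linked lipid genes Angptl4 was the 1 that rose (7.14%, against 6.16% of all genes), and 4 lay above no4sU in all 4 means regardless of p (28.6%, against 23.6%). The coactivators Ppargc1a (-1.12 ± 0.24) and Ppargc1b (-0.75 ± 0.22) fell. The Ppargc1a call held in every alternative. That of Ppargc1b was lost without any 1 of the 4 no4sU libraries, and without tube 200 µM B, tube 800 µM A or fixed 200 µM B.

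Of 17 matricellular genes that respond to YAP or TGF-beta, 3 rose and 0 fell, among the rises Thbs1, a matricellular thrombospondin (0.68 ± 0.12), and the matrix protein gene Tnc (0.38 ± 0.08), with all 3 calls held in every alternative. Among 18 BMP and SMAD feedback genes 6 rose and 1 fell. Skil, a repressor of SMAD signalling, rose (0.99 ± 0.13), while Rgma, a BMP co-receptor, fell (-1.04 ± 0.15). Both calls held in every alternative, and the count of rises was 3, 3 and 3 without tube no4sU A, tube no4sU B or fixed no4sU A and 2 without fixed no4sU B.

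**Figure D2:**
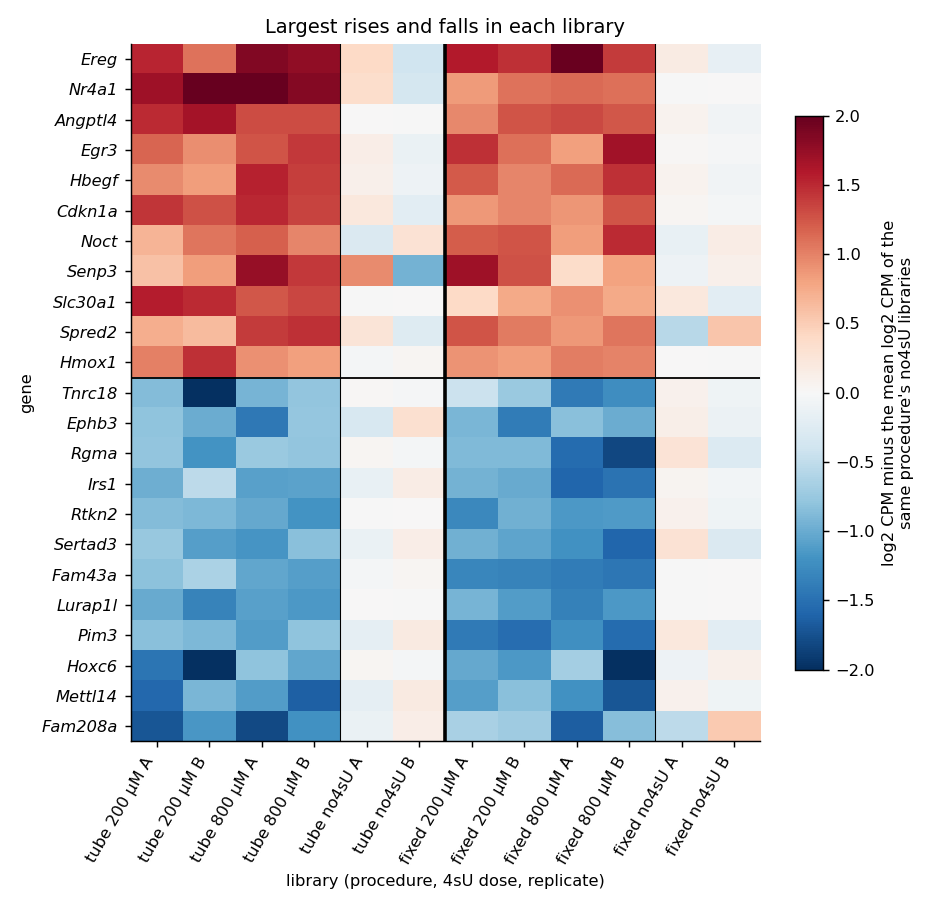
Rows are 11 of the largest rises and the 12 largest falls of the shared term, columns the 12 libraries, with tubes left of the thick line. Colour is log2 CPM minus the mean log2 CPM of the 2 no4sU libraries of the same procedure, with the scale ending at -2 and 2, and apart from Senp3 the libraries with 4sU sit on 1 side of the no4sU libraries in every row.

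Cdkn1a, which encodes p21, a cyclin-dependent kinase inhibitor induced by p53 (chr17:29090976-29100727), had 272, 245, 286 and 257 CPM in tubes with 4sU against 117 and 87.0 CPM without. In fixed cells it had 251, 271, 255 and 332 CPM with 4sU against 142 and 135 CPM without, again with no overlap. Its log2 fold change was 1.18 ± 0.11 (adjusted p = 1.1e-06). Of 27 tested p53 targets 7 rose, namely Cdkn1a, Ccng1, Mdm2, Zmat3, Aen, Btg2 and Ak1, and 1 fell, Mdm4, which encodes a partner of Mdm2 in holding p53 in check (-0.69 ± 0.11). Ccng1, cyclin G1, stood at 131 to 142 CPM in tubes with 4sU against 98.6 and 77.3 CPM without, and at 170 to 193 CPM in fixed cells with 4sU against 135 and 128 CPM without. Its share of new RNA was 33.4%, far under the 87.7% of Cdkn1a. The list median was 0.19, and 0.06 with the low-ratio scaling. The number of rises was 4 without tube no4sU A, and 4 rises held in every alternative.

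Cytokine genes rose in part. Of 21 tested cytokines and NF-kappaB targets 7 rose and 2 fell, around a median of 0.06. With the low-ratio scaling 4 rose and 3 fell and the median was -0.06, and 4 rises and 1 fall held in every alternative. Ccl2, a chemokine that attracts monocytes, had 166 to 216 CPM in tubes with 4sU against 128 and 78.9 CPM without, and 223 to 293 CPM in fixed cells with 4sU against 139 and 160 CPM without. Ptgs2, the prostaglandin synthase COX-2, had 514 to 700 CPM in tubes with 4sU against 409 and 374 CPM without, and 472 to 787 CPM in fixed cells with 4sU against 318 and 331 CPM without. Neither gene overlapped between 4sU and no4sU in either procedure. Lif, a cytokine of the interleukin-6 family, was low throughout, at 4.73 to 11.1 CPM in tubes with 4sU against 2.89 and 0.793 CPM without and 6.42 to 8.62 CPM in fixed cells with 4sU against 3.76 and 2.88 CPM without. Ccl7, Il11, Il1rl1 and Tnfaip2 were the other rises, and Vcam1 and Cxcl5 the falls. The count of falls was 1 without tube no4sU B or fixed no4sU A. Interferon response genes had 0 rises among 11 tested and 1 fall, the transcription factor Irf1 (-0.89 ± 0.20), which became 2 falls without fixed 800 µM A. The median of that list was -0.43. Irf1 itself stood at -1.25 in fixed cells and at -0.45 in tubes, where 4sU and no4sU libraries overlapped. The difference of -0.80 ± 0.38 did not pass adjustment.

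Hmox1, heme oxygenase 1, had 14.0, 19.1, 13.0 and 12.3 CPM in tubes with 4sU against 6.74 and 7.14 CPM without. The fixed-cell libraries held 6.95, 6.62, 7.59 and 7.36 CPM with 4sU against 3.76 and 3.68 CPM without. The levels were about 2-fold apart (log2 fold change 1.01 ± 0.18, adjusted p = 0.0016). Noct, which encodes the rhythmically expressed enzyme nocturnin, rose by 1.07 ± 0.16. Senp3, a SUMO protease of the nucleolus, was the 1 gene among the 12 largest rises that overlapped, with 20.6 to 45.8 CPM in tubes with 4sU against 26.5 and 7.14 CPM without. Its log2 fold change of 1.05 ± 0.28 lost its call without tube no4sU B (adjusted p = 0.083), fixed no4sU A (0.062) or fixed no4sU B (0.059).

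Among genes that handle zinc, 3 of 15 tested members rose. Slc30a1, which exports zinc across the plasma membrane, had 55.7, 52.8, 44.6 and 47.3 CPM in tubes with 4sU against 18.8 and 18.8 CPM without. In fixed cells it had 28.7, 36.7, 41.3 and 37.0 CPM with 4sU against 25.2 and 18.9 CPM without, and the shared log2 fold change was 1.04 ± 0.15 (adjusted p = 0.00013). The fixed-cell effect was 0.71 and the tube effect 1.41, and the difference of -0.70 ± 0.25 did not pass adjustment. The metallothioneins Mt2 and Mt1, small proteins that bind zinc and copper, rose as well. Mt2 had 307 to 367 CPM in tubes with 4sU against 197 and 196 CPM without, and 484 to 600 CPM in fixed cells with 4sU against 329 and 352 CPM without (0.75 ± 0.08, adjusted p = 1.3e-05). Mt1 had 1270 to 1606 CPM in tubes with 4sU against 1047 and 1021 CPM without, and 2083 to 2253 CPM in fixed cells with 4sU against 1808 and 1770 CPM without (0.39 ± 0.08, adjusted p = 0.0056). These 3 were the calls among 15 genes of zinc transport and storage, with 0 falls, and all 3 held in every alternative. The median of the 15 was 0.11, and -0.02 with the low-ratio scaling.

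The upstream sequences of the 3 zinc genes are shown because metal response elements, the sites that the zinc-sensing factor MTF-1 is known to bind, share a short core. Matches to that core, TGCACNC or TGCGCNC on either strand, are in capitals in the 250 bases before each RefSeq start (GRCm38.p6, plus strand, 5′ to 3′). The windows are chr1:191906531-191906780 for Slc30a1, chr8:94172368-94172617 for Mt2 and chr8:94178839-94179088 for Mt1.
Slc30a1: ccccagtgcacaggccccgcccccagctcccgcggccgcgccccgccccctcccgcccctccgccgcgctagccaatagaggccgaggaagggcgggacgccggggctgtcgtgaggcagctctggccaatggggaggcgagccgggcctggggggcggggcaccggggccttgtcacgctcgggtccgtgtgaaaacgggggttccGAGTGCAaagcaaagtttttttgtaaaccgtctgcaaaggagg
Mt2: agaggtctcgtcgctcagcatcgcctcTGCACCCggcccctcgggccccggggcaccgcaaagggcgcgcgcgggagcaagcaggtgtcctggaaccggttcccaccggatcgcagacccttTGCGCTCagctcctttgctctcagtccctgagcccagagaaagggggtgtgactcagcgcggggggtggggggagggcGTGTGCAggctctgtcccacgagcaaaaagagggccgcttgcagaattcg
Mt1: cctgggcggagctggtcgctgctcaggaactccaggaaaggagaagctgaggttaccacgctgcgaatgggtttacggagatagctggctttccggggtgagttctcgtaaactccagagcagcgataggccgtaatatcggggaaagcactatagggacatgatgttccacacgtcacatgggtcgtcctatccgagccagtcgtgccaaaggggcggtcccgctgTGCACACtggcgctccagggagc
Within these windows Mt2 held 3 matches and Slc30a1 and Mt1 held 1 each. Bases outside the 250 shown were not searched, so the counts do not cover the whole promoter of any of these genes. The core is common, since 2649 of 8564 promoters held at least 1 match (30.9%) and 188 held 3 or more (2.2%). It was in 146 of 528 promoters of rises (27.7%) and in 183 of 536 of falls (34.1%). Whether zinc or MTF-1 had a part in the rises was not tested. Over the same windows TATAAA was in 47 promoters of rises (8.9%), 28 of falls (5.22%) and 497 of all (5.8%). The AP-1-like pattern TGANTCA, with any base at N, was in 32 promoters of rises (6.06%), 13 of falls (2.43%) and 343 of all (4.01%).

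The largest falls included signalling and developmental genes. Irs1, the adaptor that couples the insulin and IGF1 receptors to PI3 kinase (chr1:82233101-82291416), had 31.0, 42.6, 28.8 and 29.1 CPM in tubes with 4sU against 55.3 and 67.6 CPM without. Its fixed-cell levels were 28.6, 27.5, 18.3 and 19.8 CPM with 4sU against 57.3 and 52.9 CPM without. Every library with 4sU was below every no4sU library of its procedure, and the log2 fold change was -1.06 ± 0.13 (adjusted p = 4.2e-05). Pim3, a serine kinase of short-lived mRNA, fell by 1.19 on the log2 scale, with 19.0 to 23.6 CPM in tubes with 4sU against 36.6 and 46.6 CPM without and 19.6 to 24.4 CPM in fixed cells with 4sU against 66.1 and 48.9 CPM without. Irs2, the second main insulin receptor substrate, fell with them (-0.83 ± 0.11). Among 16 insulin receptor substrates, Pim kinases and FOXO targets 6 fell (Irs1, Irs2, Pim3, Foxo1, Ccng2 and Trib2) and 0 rose, around a median of -0.32. The count was 3 without fixed no4sU A, and the falls of Irs1, Irs2 and Pim3 held in every alternative.

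Mettl14, the subunit that forms the m6A methyltransferase with Mettl3 (chr3:123368297-123386108), had 7.96, 12.5, 10.8 and 7.62 CPM in tubes with 4sU against 20.7 and 26.8 CPM without. In fixed cells it had 11.8, 14.1, 10.9 and 7.70 CPM with 4sU against 26.7 and 23.8 CPM without. The 2 ranges were far apart in both procedures (log2 fold change -1.23 ± 0.16, adjusted p = 7.2e-05). Of 16 writers, readers and erasers of m6A, Mettl14 and Zc3h13 fell and Ythdf2 rose. The Zc3h13 call was lost without tube no4sU B and the Ythdf2 call without tube no4sU A, fixed no4sU A or fixed no4sU B, so Mettl14 was the 1 call of the list held in every alternative.

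Fam208a, a subunit of the HUSH silencing complex, fell by 1.24 on the log2 scale and had 7.52 to 11.6 CPM in tubes with 4sU against 23.8 and 28.7 CPM without. In fixed cells the gap was narrow, at 4.11 to 8.29 CPM with 4sU against 9.02 and 18.6 CPM without. Hoxc6, a homeobox gene, fell by 1.22 and Lurap1l by 1.13. Lurap1l had 33.2 to 41.5 CPM in tubes with 4sU against 84.0 and 82.9 CPM without and 35.3 to 47.6 CPM in fixed cells with 4sU against 90.2 and 90.8 CPM without. Fam43a fell by 1.12, Sertad3 by 1.09, Rtkn2 by 1.06, the ephrin receptor Ephb3 by 1.03 and Tnrc18 by 1.01. All 12 of the largest falls separated the 4sU from the no4sU libraries in both procedures and held in every alternative.

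Genes of the integrated stress response, the pathway that slows translation and induces Atf4 targets, fell in 4 of 23 tested and rose in 2. Herpud1 fell by 0.73, Ppp1r15a, the GADD34 phosphatase subunit that ends the response, by 0.83, and Chac1, a glutathione-degrading enzyme, by 0.69. Ppp1r15a had 12.9 to 17.6 CPM in tubes with 4sU against 29.6 and 27.0 CPM without and 15.1 to 21.8 CPM in fixed cells with 4sU against 31.7 and 32.6 CPM without. All 4 falls, Trib3 included, held in every alternative. The rises of Vegfa and Psat1 did not, and the number of rises was 0 without fixed no4sU B and 1 without 8 other libraries. The list median was -0.03.

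Genes of mitosis fell or did not pass the test. In bulk RNA, fewer cells in a phase and less RNA per cell cannot be told apart. Of 28 mitosis genes 8 fell and 0 rose, around a median of -0.14. Ttk, a kinase of the spindle checkpoint, fell by 0.72, the spindle kinase Aurka by 0.42 and the kinetochore motor Cenpe by 0.38, and these 3 held in every alternative, while the count was 4 without tube no4sU B or fixed no4sU A. Aurka had 71.4 to 81.4 CPM in tubes with 4sU against 93.1 and 102 CPM without and 74.0 to 90.3 CPM in fixed cells with 4sU against 114 and 114 CPM without. Of 31 replication and S phase genes Pcna, the sliding clamp of DNA polymerase, rose (0.48 ± 0.09), and its call held in every alternative. Cdc6 and E2f2 fell, calls that were both lost without tube 800 µM A or fixed no4sU A. Among 17 DNA repair genes of homologous recombination 4 fell and 0 rose, around a median of -0.22. Bard1 fell by 0.83 and the helicase Brip1 by 0.69, and both held in every alternative, while the count was 2 without tube no4sU A.

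**Figure D3:**
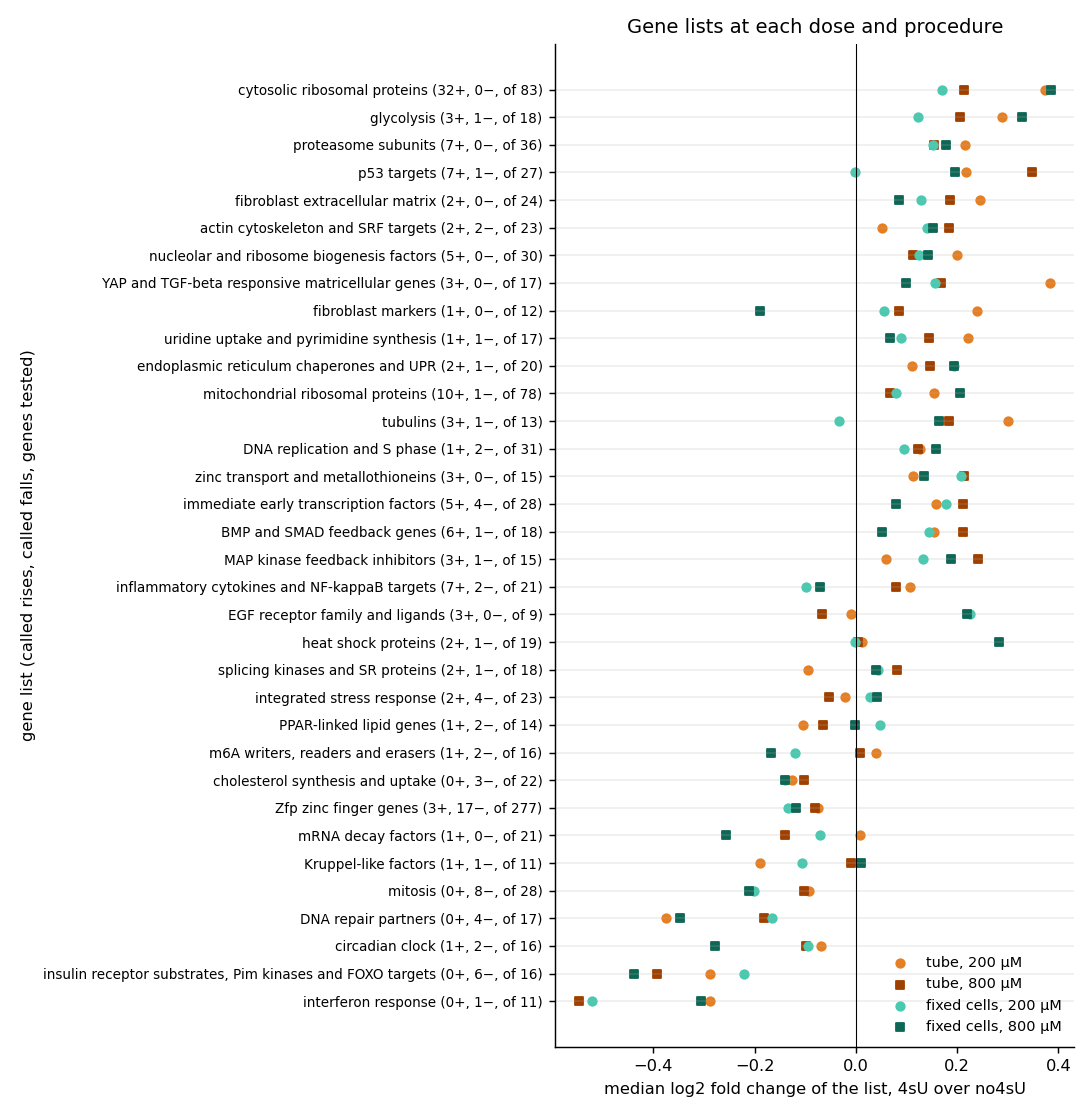
Each row is a gene list with at least 1 call, with its called rises, called falls and tested members in brackets, and each mark is the median log2 fold change of 4sU over no4sU at 1 dose and procedure. The cytosolic ribosomal proteins lie to the right of 0 and the insulin list to the left at all 4 marks, with lists ordered by the shared median, 0.30 in the first of these and -0.32 in the second.

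Ribosomal protein genes rose by small amounts in large numbers. Of 83 cytosolic ribosomal protein genes 32 rose and 0 fell, around a median log2 fold change of 0.30. Regardless of p, 71 lay above no4sU in all 4 means (85.5%, against 23.6% of all genes). Of the 32 rises only 2 held in every alternative. Rpl10 had 601 to 670 CPM in tubes with 4sU against 440 and 490 CPM without and 993 to 1491 CPM in fixed cells with 4sU against 921 and 881 CPM without. The new share of these mRNAs was low, with a list median of 11.8%. The list's count of rises was 6 without tube no4sU A or tube no4sU B, 19 without fixed no4sU A, 12 without fixed no4sU B and 5 with the low-ratio scaling, under which its median was 0.17. Ribosomal protein genes have many near-identical copies, and the sources used here do not give how the authors divided shared reads, so their levels are uncertain.

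Other housekeeping lists had smaller medians. Of 36 proteasome subunits 7 rose and 0 fell, around a median of 0.20, and no call held in every alternative. With the low-ratio scaling 0 rose and 1 fell, and the count of rises was 1 without tube no4sU B, 2 without fixed no4sU A, 3 without tube no4sU A or fixed no4sU B and 4 without fixed 200 µM B. Of 78 mitochondrial ribosomal proteins 10 rose and 1 fell (median 0.12), with 0 rises under the low-ratio scaling and 1 without tube no4sU B or fixed no4sU B. No call of these mitochondrial proteins held in every alternative. Ldha, lactate dehydrogenase A, was the 1 glycolysis call to hold in every alternative, with 847 to 1043 CPM in tubes with 4sU against 715 and 689 CPM without and 938 to 1191 CPM in fixed cells with 4sU against 801 and 840 CPM without. Of 18 glycolysis genes 3 rose and 1 fell (median 0.25), and 1 rose without tube no4sU B and 6 without fixed 200 µM A. Of 30 nucleolar factors 5 rose and 0 fell (median 0.16), with 3 rises without tube no4sU A or fixed no4sU B and 2 without tube no4sU B. With the low-ratio scaling 1 rose and 1 fell (median 0.04). The call of Gnl3, a nucleolar GTPase, held in every alternative, but its log2 fold change was 0.20 in fixed cells, where 4sU and no4sU libraries overlapped, and 0.92 in tubes.

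Structural genes gave calls in both directions. Myh9, nonmuscle myosin heavy chain, rose (0.40 ± 0.08), and Filip1l, which encodes a filamin-interacting protein, fell (-0.76 ± 0.15), among 2 rises and 2 falls in 23 actin and SRF genes (8.7% each way). With 1 library left out the rises of that list numbered 1 to 4, lowest without tube 800 µM A or B, fixed 200 µM B, fixed 800 µM B or any 1 no4sU library and highest without fixed 200 µM A or fixed 800 µM A. The falls numbered 1 without tube no4sU B or fixed no4sU A, and the calls of Myh9 and Filip1l held in every alternative. Tubb6, a beta-tubulin, had 245, 378, 259 and 236 CPM in tubes with 4sU against 136 and 147 CPM without and 456, 747, 1059 and 862 CPM in fixed cells with 4sU against 418 and 437 CPM without. It was 1 of 3 rises (23.1%) beside 1 fall among 13 tubulins, whose near-identical copies make the levels uncertain, and the 1 held in every alternative, with 1 rise without tube no4sU A, fixed 200 µM B or fixed no4sU B. The fall was lost in 10 of 12 leave-one-out fits. Timp1, an inhibitor of matrix metalloproteinases, rose (0.57 ± 0.09) among 2 rises and 0 falls in 24 matrix genes, with 6 rises without fixed 800 µM A.

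Zinc finger genes with a Zfp symbol, many of them transcriptional repressors, fell at the share of all genes. Of 277 tested 17 fell (6.14%, against 6.09% of all genes) and 3 rose (1.08%, against 6.16%). Regardless of p, 83 lay below no4sU in all 4 means (29.96%, against 21% of all genes) and 35 above (12.6%, against 23.6%), around a median of -0.12. Zfp639 fell by 0.80 and Zfp367 by 0.86. Zfp367 had 28.0 to 32.4 CPM in tubes with 4sU against 70.0 and 56.9 CPM without and 28.6 to 46.2 CPM in fixed cells with 4sU against 59.0 and 62.2 CPM without. The count of falls was 7 without tube no4sU B, 9 without fixed no4sU A and 31 with the low-ratio scaling.

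Single genes in other lists passed the test and held in every alternative. Uck2, a kinase that phosphorylates uridine, rose (0.37 ± 0.08), with 171 to 187 CPM in tubes with 4sU against 136 and 148 CPM without and 192 to 226 CPM in fixed cells with 4sU against 163 and 148 CPM without. It was the 1 rise among 17 genes of uridine uptake and pyrimidine synthesis, beside 1 fall, Slc29a3. Each is 5.88% of the list, near the 6.16% and 6.09% of all genes. The Slc29a3 call was lost without tube no4sU B or fixed no4sU B. Btg2, which promotes deadenylation of mRNA, rose to about 2-fold (1.00 ± 0.17) and was the 1 call among 21 mRNA decay factors. Bhlhe40, a clock-linked repressor, rose (0.67 ± 0.13), and the clock output factor Hlf fell (-0.61 ± 0.13). Of 16 clock genes 1 rose (6.25%) and 2 fell (12.5%), around a median of -0.23, and -0.35 with the low-ratio scaling. The other fall was Bhlhe41, a call lost in several leave-one-out fits. Klf7 fell by 0.43, among 1 rise and 1 fall in 11 Kruppel-like factors (9.09% each way). Hspe1, the mitochondrial chaperonin 10, rose by 0.35, among 2 rises (10.5%) and 1 fall (5.26%) in 19 heat shock proteins. Small nucleolar RNA host genes (5 tested), nuclear long noncoding RNAs (4 tested) and markers of other cell types (3 tested) had 0 calls in edgeR. The lists of endoplasmic reticulum chaperones (2 rises and 1 fall of 20) and of splicing kinases and SR proteins (2 rises and 1 fall of 18) had 0 calls that held in every alternative.

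Gapdh and Actb, common loading controls, were not called. Actb had 14357 to 18600 CPM in tubes with 4sU against 16460 and 16006 CPM without and 7999 to 12284 CPM in fixed cells with 4sU against 9919 and 9648 CPM without (0.07 ± 0.10, adjusted p = 0.72). Gapdh stood at a log2 fold change of 0.17 ± 0.14 (adjusted p = 0.44). Both have near-identical copies in the genome.

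The procedures were then set side by side, each against its own no4sU libraries. In fixed cells 242 genes were called (2.18% of those tested), 51 up and 191 down. In tubes 398 were called (3.59%), 234 up and 164 down. The procedures shared 35 rises, which is 68.6% of the fixed-cell rises and 14.96% of the tube rises. They also shared 63 falls, which is 33.0% of the fixed-cell falls and 38.4% of the tube falls. No gene was called in opposite directions. Of the 242 fixed-cell calls 227 (93.8%) had the same sign in tubes, and of the 398 tube calls 370 (93.0%) had the same sign in fixed cells, against 68.2% of all genes tested. The shared term called 902 genes that neither procedure called alone. The single-procedure counts rest on 2 no4sU libraries each. Fixed cells gave 13 calls without fixed no4sU A and 10 without fixed no4sU B, and tubes gave 44 without tube no4sU A and 9 without tube no4sU B.

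The test of the difference itself called 0 genes. In edgeR 638 genes had an unadjusted p under 0.05 (5.76%), the smallest adjusted p was 0.66, and DESeq2 also called 0. Without the filter on low counts edgeR called 11. Among genes called by the shared term the median SE of the difference was 0.22 on the log2 scale, and the missing calls do not show that the procedures act alike.

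Few called genes disagreed in sign among the 4 means, 8 rises and 8 falls. Clcf1, a cytokine of the interleukin-6 family, had 135, 178, 149 and 149 CPM in tubes with 4sU against 59.2 and 63.2 CPM without. Fixed cells gave it 58.8 and 92.2 CPM at 200 µM and 165 and 112 CPM at 800 µM against 73.8 and 79.0 CPM without, so its mean at 200 µM fell beside no4sU (-0.02) while the others were above. Fscn1, the actin-bundling protein fascin, stood at -0.0045 in that same group and at 0.37 to 0.61 elsewhere. Sox4 was near no4sU in tubes at 200 µM (-0.01), and Fzr1, an activator of the anaphase-promoting complex, was at 0.05 there and at -0.33 to -0.75 elsewhere. The calls of Fscn1, Sox4 and Fzr1 were lost in several leave-one-out fits, without fixed no4sU B in each case, and that of Clcf1 in 0.

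Dose added little that the test could resolve. Between 800 and 200 µM over both procedures 2 genes were called (0.0181% of those tested), with 836 at an unadjusted p under 0.05. They were Dancr, a noncoding host of small nucleolar RNAs, and Slc38a2, a transporter of neutral amino acids. Slc38a2 had 238 and 206 CPM at 800 µM in tubes against 336 and 318 CPM at 200 µM, and 184 and 172 CPM at 800 µM in fixed cells against 247 and 265 CPM at 200 µM. Without 4sU it had 269 and 274 CPM in tubes and 319 and 327 CPM in fixed cells, so in tubes the 200 µM libraries lay above no4sU and the 800 µM libraries below. Leaving out fixed 800 µM B gave 236 calls, and other leave-one-out fits gave 0 or 1. Over the genes that rose in all 4 means, the median log2 fold change was 0.45 and 0.41 at 200 and 800 µM in tubes and 0.28 and 0.37 in fixed cells. Over those that fell it was -0.50 and -0.56 in tubes and -0.54 and -0.62 in fixed cells. Medians over all genes lay between -0.0023 and 0.033. These comparisons share their no4sU libraries within a procedure.

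The share of new RNA, which the rule did not use, differed between the called groups. This new-to-total ratio is the authors' estimate of the share of a gene's RNA made during labelling, in the 8 libraries with 4sU. The median over genes that fell in all 4 means was 70.6% (663 genes with a value) and over genes that rose 30.4% (674 genes), against 46.4% over 10987 genes with a value. In single libraries the median of the falls ran between 58.8% and 76.3%, that of the rises between 21.9% and 36.6% and that of all genes between 37.2% and 52.5%. In each of the 8 libraries the falls were above all genes and the rises below. The ratio and the fold change come from the same 4sU libraries, so this is a description with no test.

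Rises sat at both ends of the ratio. In the decile of genes with the lowest ratio (3.17% to 17.2%) 14.9% rose and 0.182% fell. In the seventh decile 2.45% rose and 10.5% fell, and in the highest decile (86.3% to 99.5%) 9.19% rose and 12.6% fell. Of the rises 72 had a ratio over 90% (10.7%, against 6.02% of all genes with a value), among them Nr4a1, Hbegf, Slc30a1 and Ereg. A ratio under 20% was found in 206 rises (30.6%, against 13.6% of all genes). Among the falls 77 were over 90% (11.6%) and 3 under 20% (0.452%). Spearman's rank correlation of the shared log2 fold change with the ratio was -0.32 across 10987 genes, which share libraries and are not independent replicates.

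**Figure D4:**
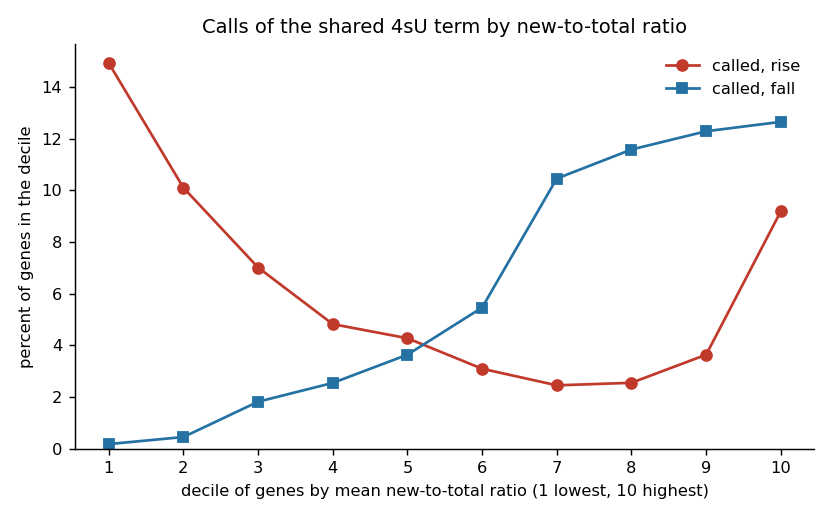
Genes were split into 10 groups by their mean new-to-total ratio over the 8 libraries with 4sU (x axis), and the y axis gives the percent of each group called by the shared term. Falls (blue squares) climb to 12.6% in the highest decile, while rises (red circles) are 14.9% in the lowest, 2.45% in the seventh and 9.19% in the highest.

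Genes that rose were, by their medians, shorter and more abundant than genes that fell. The median deposited length was 2473 bases for rises in all 4 means and 4287 bases for falls, against 3385 bases for all tested genes, and Spearman's correlation between length and fold change was -0.22. The median level without 4sU was 99.5 CPM for rises and 33.1 CPM for falls, against 27.6 CPM for all. In the shortest decile of genes 14.0% rose and 1.17% fell, and in the longest decile 2.35% rose and 11.0% fell. The U content of the longest transcript hardly differed, with medians of 25.3% in rises, 24.95% in falls and 25.04% in all tested genes. The separate parts of length, level and ratio were not tested.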

How the data were processed

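The deposited table of 15217 genes gives expected counts, 1 value for each gene in each library, per the file headers, with 16.2% to 22.0% of a library's values not whole. They were rounded before testing. It also holds, for the 8 libraries with 4sU, the new-to-total ratio, a fraction from the authors (posterior mean used here), and the gene length. Tools listed in the submitters' processing notes are STAR 2.7.10b, Bowtie2 2.3.0 and cutadapt. Their roles, the build and the annotation are not stated in those sources. Coordinates and U content are from GENCODE M21 (GRCm38), by gene ID. Promoters are RefSeq's, on GRCm38.p6, the first listed per symbol.

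Genes were kept by filterByExpr (minimum count 10, minimum total 15). The test of counts was that of edgeR 4.0.16 (R 4.3.3), with TMM scaling, the quasi-likelihood F test and Benjamini-Hochberg adjustment at 0.05. The shared term came from 1 model with procedure and 4sU (9 residual degrees of freedom, biological coefficient of variation 13.3%), and the difference between procedures from the model with their interaction. Each procedure alone used the interaction model, and single doses and the dose step used a fit of 6 groups. SEs are the log2 fold change over the root of F. Alternatives were DESeq2 1.42.0, other scalings, no filter, a replicate block and each library left out. No per-sample column of the table was left unmapped.

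Members and gene lists were chosen with earlier results of these data known. Named genes were the 12 largest called rises and falls averaging 50 counts or more and with 1 direction in all 4 means, 3 called members per list with the smallest p, the 4 largest dose steps and called genes without 1 direction, and Gapdh and Actb. Of the list members the text gives mainly those whose call held in every alternative, a choice made after their values were seen. Other calls are named where a count is small. A few genes taken by this rule are not reported here. Intervals for counting error were not used, since tests rest on replicates. With 3629634 to 7762635 counts per library, 1 CPM is about 4 to 8 reads.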

Additional observations from a re-analysis of the deposited data

Results flagged for a closer look

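The effect of 4sU differed between doses at 2 genes by the test of the step between 800 and 200 µM over both procedures. Dancr had a step of -0.71 ± 0.11 (log2, SE, edgeR adjusted p = 0.042), with 26.1 and 31.2 CPM at 800 µM in tubes against 47.3 and 49.2 CPM at 200 µM, and 42.5 and 44.7 CPM at 800 µM in fixed cells against 71.0 and 67.4 CPM at 200 µM. Without 4sU it had 61.1 and 44.4 CPM in tubes and 89.4 and 96.0 CPM in fixed cells. This is 1 of several gene IDs with that symbol in the table. Slc38a2 had a step of -0.54 ± 0.09 (adjusted p = 0.042), lower at 800 µM in 4 of 4 libraries.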

How the results depend on the processing

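No gene called by the shared term was called in the opposite direction under any setting run. Of the medians given, some turned sign with the low-ratio scaling, at -0.11 over all genes against 0.016, and at -0.06 for the EGF receptor list, -0.03 for immediate early factors, -0.06 for cytokines and -0.02 for zinc genes. With 1 library left out, the cytokine median was -0.02 without tube no4sU B and the integrated stress response median 0.03, 0.01 and 0.02 without tube no4sU B, fixed 200 µM A and fixed no4sU A. Counts of the shared term were 615 (without tube no4sU B) to 1690 (without fixed 800 µM A) with 1 library left out. Of its 1358 calls, 416 held with each library left out in turn (167 rises and 249 falls) and 402 under every alternative, including 23 of the 12 largest rises and 12 largest falls. With 1 library left out, genes rising in all 4 means numbered 250 to 877 and genes falling 359 to 773. Tube calls numbered 9 to 759, fixed-cell calls 10 to 284, dose-step calls 0 to 236 and procedure-difference calls 0 to 0. The low-ratio scaling gave 203 rises and 1361 falls in all 4 means, 488 fixed-cell calls and 1 dose-step call. Without the filter on low counts there were 11 procedure-difference, 691 tube, 540 fixed-cell and 66 dose-step calls. DESeq2 gave 670 tube and 390 fixed-cell calls. The causes were not tested. The replicate letters did not pair the libraries (correlations of the A minus B differences between groups, -0.11 to 0.11), and with the letter as a replicate block the shared term called 1139 genes, with 539 rises and 594 falls in all 4 means, 231 tube, 145 fixed-cell and 0 dose-step calls.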
